A study of Mus musculus with 17 samples.

Results

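Thymic lymphomas of Tcf1-/- mice were compared with thymi of Tcf1+/- mice on expression arrays. The members were chosen from the sample labels alone, 8 lymphomas and 5 control thymi of the 17 arrays of the series, with 1 mouse per array. The lymphomas arose in C57Bl/6 mice that carried the ΔVII deletion on both alleles of Tcf1, the HMG-box factor also known as T cell factor-1, and the controls were C57Bl/6 mice with 1 wild-type and 1 ΔVII allele, so that both groups carried the deletion and no wild-type thymus entered the comparison. The deletion was present in the germline and hence in every cell of the thymus, not in thymocytes alone. The labels give no age, sex or tumor stage. The labels give homogenized thymus as the source of the RNA, and the study's methods speak of thymocytes, so that how many epithelial, stromal and other immune cells the samples held is not known. Of 18193 genes with a probe set of their own, 13755 were bright enough to be tested. The targeted gene itself was not analysed here.

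Thymocytes pass from a double-negative stage, which has neither coreceptor, to a double-positive stage with both Cd4 and Cd8 and then to single-positive cells that leave the thymus. Notch signaling drives the earliest of these steps, when its receptors, cut at the membrane, bind the DNA-binding factor Rbpj and switch on genes such as Hes1, Dtx1 and Il2ra. TCF/LEF factors repress or activate genes depending on whether corepressors of the Groucho (Tle) family or β-catenin, the effector of Wnt signaling, are bound to them. Signals through the pre-T-cell receptor and the T-cell receptor then test each cell, and the Rag recombinases assemble the receptor genes.

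On 4 of the 13 arrays (control mice 1 and 2 and lymphomas 1 and 2) the log2 values had an interquartile range of 2.93 to 3.06, against 3.49 to 3.75 on the other 9. On those 4 arrays the 3' probe set of the housekeeping gene Gapdh exceeded the 5' probe set by 1.61 and 1.12 in the controls and by 2.63 and 2.33 in the lymphomas. Among the other 9 arrays this measure of RNA quality ran from -0.13 to 0.26 in the controls and from -0.03 to 0.96 in the lymphomas. For the housekeeping gene Actb it ran from 0.32 to 0.51 in these controls and from 0.49 to 1.94 in these lymphomas. The part of RNA quality in the results below was not tested. The labels name no batch, and both groups are on both kinds of array, so values without the 4 arrays are given where they change a call of a gene described here. The Y-linked transcript Eif2s3y was at 8.07, 3.28, 9.49, 9.43 and 9.36 in the controls, and in the lymphomas at 8.5 and 9.87 in mice 4 and 6 and at or below 3.96 in the others. Y-linked signal and group thus moved together, and the share of sex in any single difference was not tested beyond a fit with Y-linked signal as a term (the Y-linked term). Mice of the same number correlated after subtraction of the group means, so that a fit of the 5 same-numbered pairs is quoted where it changes a call. In the labels nothing beyond the mouse number marks a pair. Both mice of each pair were also on the same kind of array, and its part in the correlation was not tested.

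Many genes separated the lymphomas from the control thymi. Of the 13755 genes tested, 1170 (8.51%) were higher and 579 (4.21%) were lower in lymphomas at an adjusted p under 0.05 from limma with Benjamini-Hochberg adjustment, 1749 (12.7%) in all. All 8 lymphomas lay above all 5 controls for 657 genes (4.78%) and below all of them for 261 (1.9%). The log2 difference was at least 1 in either direction for 854 of the called genes and at least 2 for 207. Over all genes tested the median difference was 0.06 on the log2 scale. The split between higher and lower genes depended on the arrays. Without the 4 arrays that stood apart 1573 genes were called, 47.6% of them higher in place of 66.9%, and with the kind of array as a block 3753 genes were called, 54.7% of them higher, including every one of the 1749. Over the 5 same-numbered pairs 1785 genes were called, 885 higher (6.43%) and 900 lower (6.54%), so that 49.6% were higher, and 1152 were shared with the 1749. Quantile normalization of the arrays left 57.7% higher.

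The 20 genes with the highest and the 20 with the lowest log2 difference, among called genes without overlap between the groups, were taken as the members to describe. The rule used these values, so they are a description. All 40 kept their direction in both kinds of array, which a choice of genes without overlap fixes in advance. All 40 were also called in each of the 13 fits that left out a mouse and in the fit of same-numbered pairs. These fits reuse the values by which the genes were chosen and are no independent check. Without the 4 arrays 39 were called, the exception being Gbp8 (-3.24, adjusted p = 0.0547 from limma), which also missed with the Y-linked term (adjusted p = 0.0524).

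**Figure D1:**
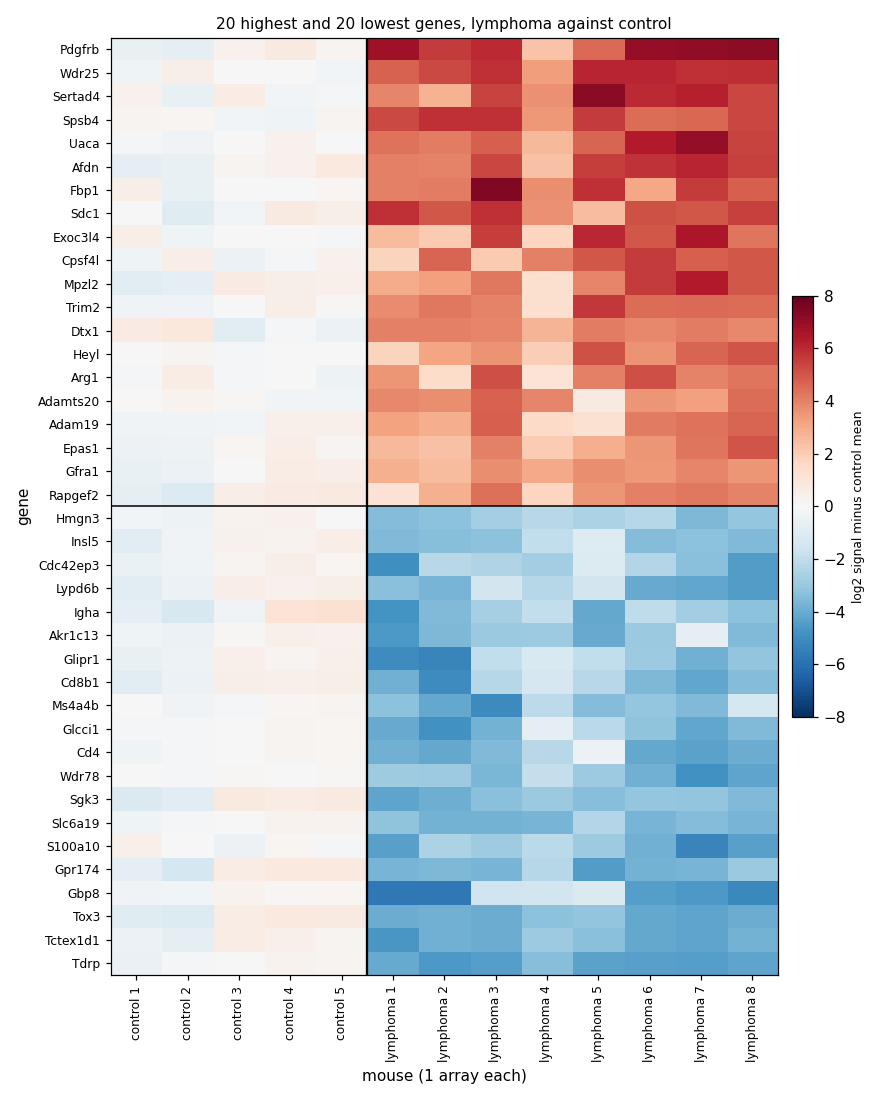
Each row is 1 of the 20 highest or 20 lowest genes and each column 1 mouse, 5 controls to the left of the black line and 8 lymphomas to the right. Color gives the log2 signal minus the mean of the 5 controls, red above and blue below, and lymphoma 4 has paler red than most other lymphomas in many of the 20 highest genes, for example 8.81 for Pdgfrb against 13.66 in lymphoma 8.

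Several of the genes that were higher encode cell-surface receptors and adhesion molecules. Pdgfrb, the β receptor for platelet-derived growth factor, which marks mesenchymal cells, had log2 signals of 5.94, 5.74, 6.88, 7.24 and 6.74 in control mice 1 to 5 and 8.81 to 13.66 with a median of 12.86 in the lymphomas. Every tumor lay above every control, lymphoma 4 the closest to them at 8.81, and the difference was 5.8 (standard error 0.71, adjusted p = 0.000201 from limma), which is 55.7-fold. A second probe set of Pdgfrb rose by 3.51 (adjusted p = 0.00443). Sdc1, the heparan sulfate proteoglycan syndecan-1 and a usual marker of plasma cells, had log2 signals of 4.46, 3.57, 4.29, 5.23 and 5.01 in the controls and 7.0 to 10.34 with a median of 9.57 in the lymphomas. All tumors were above the controls, lymphoma 5 the lowest of them at 7.0, with a difference of 4.79 (standard error 0.51, adjusted p = 7.8e-05 from limma). Gfra1, the coreceptor for the neurotrophic factor GDNF, was at 7.59, 7.74, 8.16, 8.76 and 8.71 in controls and 10.69 to 12.12 with a median of 11.68 in lymphomas. The tumors were tightly grouped (SD 0.5, n = 8), with a difference of 3.33 (standard error 0.27), although its other 2 probe sets gave 1.81 and 1.56 and were not called (adjusted p = 0.0771 and 0.348). Mpzl2, an immunoglobulin-type adhesion protein, and Afdn, the junction protein afadin, differed by 4.08 and 4.83.

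Enzymes, proteases and regulators were among the rest. Wdr25, a WD-repeat protein, had log2 signals of 4.83, 5.64, 5.2, 5.13 and 4.95 in controls and 8.49 to 11.26 with a median of 10.98 in lymphomas, with no overlap and a difference of 5.38 (standard error 0.4, adjusted p = 2.83e-06 from limma). Spsb4, a SOCS-box substrate adaptor of ubiquitin ligases, was at 4.22, 4.18, 3.79, 3.68 and 4.26 in controls and 7.48 to 9.89 with a median of 9.36 in lymphomas. Here lymphoma 4 was again the lowest of the 8, and the difference was 5.05 (standard error 0.36). Fbp1, the gluconeogenic enzyme fructose-1,6-bisphosphatase, was at 5.84, 4.8, 5.41, 5.34 and 5.57 in controls and 8.51 to 12.82 with a median of 9.81 in lymphomas (difference 4.82, standard error 0.58). Arg1, the arginine-degrading enzyme arginase, was at 4.57, 5.32, 4.63, 4.73 and 4.3 in controls and 5.81 to 9.89 with a median of 8.71 in lymphomas. Its lowest tumors, lymphomas 4 and 2 at 5.81 and 6.21, lay close to control 2 at 5.32, and the difference was 3.59 (standard error 0.63). Epas1, the hypoxia-inducible factor HIF-2α, differed by 3.34 and the transcriptional cofactor Sertad4 by 5.07. The metalloproteases Adamts20 and Adam19 differed by 3.52 and 3.35, the ubiquitin ligase Trim2 by 4.04 and the exchange factor for Rap GTPases Rapgef2 by 3.23. The others were Uaca (4.91), Exoc3l4 (4.2) and Cpsf4l (4.11), and the Notch targets Dtx1 and Heyl are described with their pathway. On other probe sets the differences of Adam19 (1.76), Epas1 (0.66) and Cpsf4l (0.78) were smaller and not called (adjusted p = 0.0906, 0.0906 and 0.0856).

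Among the genes that were lower, coreceptors and genes of thymocyte maturation stood beside genes that are not usual markers of thymocytes. In such bulk samples, fewer cells of a type and less RNA per cell cannot be told apart. Tdrp, a gene named for its part in testis development, had log2 signals of 8.52, 8.99, 9.13, 9.38 and 9.3 in controls and 4.44 to 5.68 with a median of 4.75 in lymphomas, with a difference of -4.22 (standard error 0.21, adjusted p = 8.11e-08 from limma). Both groups were narrow, and the highest tumor, lymphoma 4 at 5.68, was still well below the lowest control. Tox3, an HMG-box protein, was at 6.5, 6.4, 8.06, 8.27 and 8.19 in controls and 3.25 to 4.35 with a median of 3.52 in lymphomas (difference -3.81, standard error 0.34). Its controls split by kind of array, mice 1 and 2 lower than mice 3 to 5, and the difference was -2.88 within the 4 arrays and -4.47 within the other 9. Tctex1d1 and Wdr78, relatives of dynein chains, differed by -3.85 and -3.4. Slc6a19, a transporter of neutral amino acids, was at 8.61, 8.78, 8.9, 9.2 and 9.24 in controls and 5.17 to 6.58 with a median of 5.24 in lymphomas (difference -3.47, standard error 0.23).

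Immune receptors and signaling genes completed the lower set. Gpr174, a receptor for lysophosphatidylserine, was at 6.95, 6.34, 8.33, 8.54 and 8.54 in controls and 3.29 to 5.49 with a median of 4.01 in lymphomas (difference -3.53, standard error 0.42). The interferon-induced GTPase Gbp8 was at 10.06, 10.13, 10.62, 10.47 and 10.53 in controls, and lymphomas 3, 4 and 5 at 8.74, 8.91 and 9.23 lay far above the other 5 tumors, the highest of which was at 5.95. Sgk3, a kinase related to Akt, differed by -3.46, the annexin partner S100a10 by -3.53, the tetraspanning T-cell protein Ms4a4b by -3.26, and the glucocorticoid-induced gene Glcci1 by -3.31. The remaining genes were Glipr1 (-3.18), the ketosteroid reductase Akr1c13 (-3.16), the immunoglobulin heavy chain Igha (-3.14), Lypd6b (-3.12), the Cdc42 effector Cdc42ep3 (-2.94), the relaxin-family peptide Insl5 (-2.94) and the nucleosome-binding protein Hmgn3 (-2.9). For Glipr1 the probe sets disagreed, since another one rose by 1.05 (adjusted p = 0.0365 from limma).

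Genes of the T lineage were checked first among the lists, since they define the tissue. The chains of the T-cell receptor complex Cd3d, Cd3e and Cd3g were not called (differences -0.01, 0.01 and -0.22), and their lowest lymphoma values were 13.15, 10.61 and 11.62, all in lymphoma 4. Of 11 T-lineage genes tested, 6 were lower and none was higher, with a median of -0.65. Cd247, the zeta chain of the receptor complex, had log2 signals of 11.85, 11.82, 12.27, 12.2 and 12.3 in controls and 9.49 to 11.24 with a median of 10.02 in lymphomas. No tumor reached the lowest control, and Cd247 fell by 1.92 (standard error 0.27, adjusted p = 0.00049 from limma). Other probe sets of Cd247 gave -0.62 and -1.93 and were not called (adjusted p = 0.17 and 0.27). The costimulatory receptor Cd28 fell by 1.80, Cd7 by 1.53, the commitment factor Bcl11b by 0.67 and Thy1 by 0.65. Cd5, which dampens receptor signals, differed by -1.77 and was called in 5 of 13 fits that left out a mouse, and over the same-numbered pairs it missed (adjusted p = 0.0578). Cd7, Thy1 and Cd5 missed without the 4 arrays (adjusted p = 0.0657, 0.108 and 0.081). With the Y-linked term 2 of the 6 were called.

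Genes of receptor signaling were lower in part. Of 22 tested, 9 were lower and 1 was higher, with a median of -0.77. The kinase Fyn had log2 signals of 10.51, 10.51, 9.81, 10.25 and 10.15 in controls and 10.57 to 11.5 with a median of 10.91 in lymphomas, all tumors above all controls, and rose by 0.77 (standard error 0.18, adjusted p = 0.013 from limma). Nfatc3, a calcium-regulated factor, was at 11.23, 11.01, 11.46, 11.82 and 11.79 in controls and 10.04 to 10.86 with a median of 10.33 in lymphomas and fell by 1.13. The adaptors Sla and Sla2 differed by -1.51 and -0.82, the kinase Prkcq by -0.71 and Themis, needed for positive selection, by -1.54, all called. Lcp2, Cd6, Grap2 and Trat1 completed the lower genes and each lost its call in 6 or more of the 13 fits that left out a mouse. Over the pairs, Cd6 and Grap2 missed (adjusted p = 0.07 and 0.0562). Grap2 and Trat1 missed without the 4 arrays (adjusted p = 0.0752 and 0.101). With the Y-linked term 3 of the 9 lower genes were called, and Fyn was not (adjusted p = 0.1).

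Double-positive genes had the largest share of called members among the lists, with 15 of 19 lower, none higher and a median of -1.91 against 0.06 over all genes. Cd4 had log2 signals of 11.04, 11.26, 11.4, 11.61 and 11.49 in controls and 7.08 to 10.87 with a median of 7.44 in lymphomas. Lymphoma 5 at 10.87 lay next to the lowest control and lymphoma 4 at 9.15 came next, while the other 6 were at or below 7.84. The coreceptor chain Cd8b1 was at 12.72, 13.11, 14.05, 13.95 and 14.01 in controls and 8.57 to 12.25 with a median of 10.04 in lymphomas, with lymphoma 4 the highest, and differed by -3.23 (standard error 0.52, adjusted p = 0.00157 from limma). Cd8a differed by -2.89 (standard error 0.64), and lymphoma 7 at 6.57 had the lowest value by a wide margin. Without the 4 arrays Cd8a missed the threshold (adjusted p = 0.0734).

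The recombinase genes differed among the tumors. Rag1 was at 13.76, 13.63, 14.08, 14.27 and 14.16 in controls, 13.51 and 13.74 in lymphomas 3 and 5, and 8.18 and 7.92 in lymphomas 1 and 2. Its difference of -2.82 (standard error 0.87, adjusted p = 0.0476 from limma) was -5.64 within the 4 arrays and -1.98 within the other 9, where it missed (adjusted p = 0.065), as it did over the pairs (adjusted p = 0.0602) and in 11 of the 13 fits that left out a mouse. Rag2 differed by -2.19 and lost its call without control 3, 4 or 5. Dntt, which adds bases at the joints of receptor genes, fell by 0.97. The thymic chemokine receptor Ccr9 fell by 1.82, the chromatin organizer Satb1 by 1.44, the channel Aqp11 by 2.52, the signaling lymphocyte receptor Slamf1 by 2.25, the guidance receptor Plxnd1 by 2.25 and the cytokine inhibitor Socs1 by 1.91. Cd69, induced by receptor signals, differed by -2.32 (adjusted p = 0.0127) but missed over the pairs (adjusted p = 0.0526). Ccr9, too, missed without the 4 arrays (adjusted p = 0.062). With the Y-linked term 7 of the 15 were called.

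Genes of the earliest and of the last thymic stages were read next. Of 18 early progenitor genes tested, 1 was higher and 1 was lower, with a median of 0.00. Each is 5.56% of the list, near the 8.51% higher and 4.21% lower of all genes tested. The LIM-only oncogene Lmo1 had log2 signals of 5.41, 4.95, 4.98, 4.82 and 4.65 in controls and 5.27 to 9.96 with a median of 8.19 in lymphomas. Lymphoma 4 at 5.27 lay within the control range, the other 7 lay above it, and the difference was 2.86 (standard error 0.65, adjusted p = 0.0104 from limma). Lmo1 missed with the Y-linked term (adjusted p = 0.0858). The erythroid factor Nfe2 differed by -0.82 (adjusted p = 0.0228, 0.0524 over the pairs) and lost its call without control 1 or 3. Of 18 genes of mature T cells and their exit, 5 were lower and none was higher, with a median of -0.56. One of them, the chemokine receptor Ccr7, was at 9.08, 8.89, 8.64, 9.03 and 8.93 in controls and 5.65 to 8.12 with a median of 6.95 in lymphomas. All tumors were below the controls, and Ccr7 fell by 1.95 (standard error 0.34, adjusted p = 0.00252 from limma). The lymphocyte GTPases Gimap3 and Gimap6 fell by 1.79 and 1.89. S1pr1, the exit receptor, differed by -1.07 and was called in 5 of the 13 fits that left out a mouse, and it missed without the 4 arrays (adjusted p = 0.0743). The inhibitor Nfkbia differed by -0.82 (adjusted p = 0.0618 over the pairs). Of the 5 lower genes 3 were called with the Y-linked term.

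Among 13 genes of γδ and innate-like T cells, 3 were higher and 1 was lower. Sox13, an HMG-box factor of γδ cells, was at 7.53, 7.34, 6.91, 7.17 and 7.4 in controls and 8.22 to 10.13 with a median of 9.17 in lymphomas, without overlap, and rose by 1.91 (standard error 0.33, adjusted p = 0.00223 from limma). The cytokine receptor Il17rb rose by 1.07. The kinase Blk (1.34, adjusted p = 0.0494) was called in 1 of the 13 fits that left out a mouse, and Tbx21 (-0.57) in 4, and both missed over the pairs (adjusted p = 0.11 and 0.0746) and with the Y-linked term (adjusted p = 0.103 and 0.134). Blk also missed without the 4 arrays (adjusted p = 0.235).

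**Figure D2:**
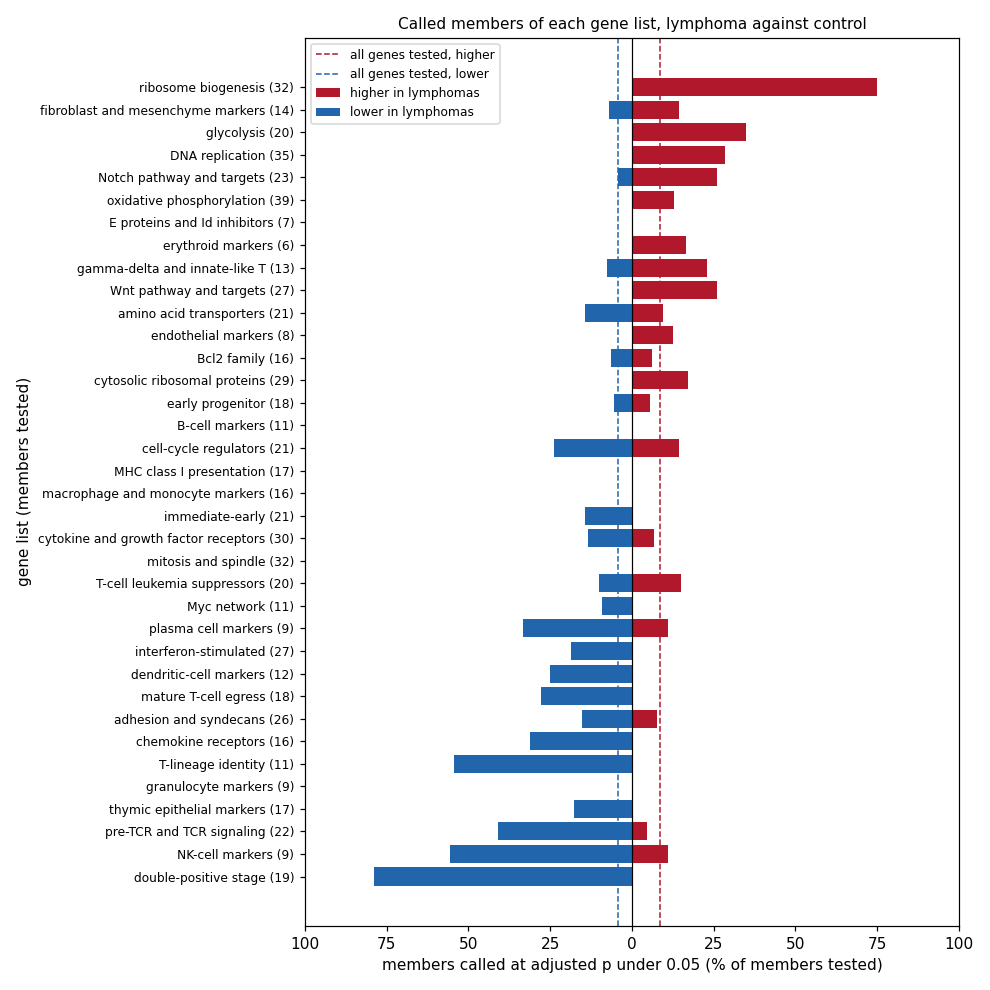
Bars give the percentage of each list's tested members called higher (red, right) or lower (blue, left) in the 8 lymphomas than in the 5 controls by limma, with the number tested in parentheses. Dashed lines mark the share over all genes tested, 8.51% higher and 4.21% lower; ribosome biogenesis had 24 of 32 members higher and the double-positive stage 15 of 19 lower.

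Notch receptors and targets were higher in part, with 6 of 23 members higher, 1 lower and a median of 0.37. Notch1 had log2 signals of 10.85, 10.77, 10.76, 10.93 and 11.06 in controls and 12.53 to 13.31 with a median of 12.96 in lymphomas. Neither group spread over more than 1 log2 unit, no value overlapped, and Notch1 rose by 2.1 (standard error 0.14), on a second probe set by 2.46. Notch3 was at 8.17, 8.16, 8.41, 8.83 and 8.65 in controls and 9.46 to 11.7 with a median of 10.34 in lymphomas, lymphoma 5 the highest, and rose by 1.87 (standard error 0.32, adjusted p = 0.00209 from limma). Notch2 and Notch4 differed by 0.36 and 0.4 and were not called, and neither were the ligands Dll1, Dll4, Jag1 and Jag2 or Rbpj (0.43).

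Among the targets, lymphoma 4 had the lowest signal of the 8 tumors for Dtx1, Hes1 and Il2ra. Dtx1, a ubiquitin ligase, was at 9.54, 9.69, 7.99, 8.74 and 8.42 in controls and 11.58 to 12.96 with a median of 12.85 in lymphomas, and lymphoma 4 at 11.58 stood alone below the other 7. A second, dimmer probe set of Dtx1 gave -0.23 (adjusted p = 0.724), so the rise rests on 1 probe set. The repressor Heyl was at 4.67, 4.9, 4.6, 4.66 and 4.67 in controls and 6.5 to 9.76 with a median of 8.3 in lymphomas. Every tumor was above every control, lymphomas 1 and 4 the least so, and Heyl rose by 3.6 (standard error 0.52, adjusted p = 0.00063 from limma). Hes1 was at 7.17, 7.4, 7.14, 7.42 and 7.28 in controls and 7.1 to 10.68 with a median of 10.01 in lymphomas, with lymphoma 4 at 7.1 below the lowest control and the other 7 above the highest. Il2ra, the interleukin-2 receptor α chain CD25, was at 7.12, 7.25, 7.66, 8.23 and 8.05 in controls and 6.5 to 11.8 with a median of 10.85 in lymphomas. Again lymphoma 4 at 6.5 was below all controls and the other 7 above them. The difference of 2.58 (adjusted p = 0.0284 from limma) missed without the 4 arrays (adjusted p = 0.183), over the pairs (adjusted p = 0.109) and in 7 of the 13 fits that left out a mouse. Lfng, which modifies Notch receptors, was the lower member (-1.28, adjusted p = 0.0331), at 8.98, 8.79, 7.14, 7.7 and 7.28 in controls and 5.58 to 7.48 with a median of 6.89 in lymphomas, and was called in 8 of those 13 fits. Lfng missed without the 4 arrays, where its difference was -0.84 (adjusted p = 0.118), and with the Y-linked term (adjusted p = 0.0639). With the Y-linked term 4 of the 6 higher members were called, Hes1 and Il2ra missing (adjusted p = 0.0719 and 0.174).

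Wnt pathway genes were likewise higher in part, with 7 of 27 members higher, none lower and a median of 0.19. In the exact Mann-Whitney U test 2 were higher, and without the 4 arrays 4. Of the 3 TCF/LEF factors tested Lef1 alone was called, with log2 signals of 10.77, 10.95, 11.09, 11.48 and 11.29 in controls and 11.08 to 12.91 with a median of 12.28 in lymphomas. Its difference of 1.02 (standard error 0.27, adjusted p = 0.0223 from limma) missed over the pairs (adjusted p = 0.0937), without the 4 arrays (adjusted p = 0.0953) and without control 1, 2 or 3. A second probe set of Lef1 rose by 1.43 (adjusted p = 0.00624 from limma). Tcf7l1 and Tcf7l2 differed by -0.12 and 0.07. Tnfrsf19, a receptor of the TNF family, was at 4.8, 4.76, 4.15, 4.19 and 4.31 in controls and 4.76 to 8.46 with a median of 7.73 in lymphomas, with lymphoma 4 at 4.76 among the controls. Without the 4 arrays it missed (adjusted p = 0.0654). Apcdd1, a membrane inhibitor of Wnt ligands, was at 6.04, 5.8, 6.45, 6.67 and 6.69 in controls and 6.94 to 10.62 with a median of 8.97 in lymphomas. No tumor overlapped the controls, and Apcdd1 rose by 2.57 (standard error 0.48, adjusted p = 0.00382 from limma). Cyclin D1 (Ccnd1) was at 6.98, 5.41, 6.55, 6.76 and 6.56 in controls and 6.63 to 10.14 with a median of 9.09 in lymphomas, where lymphoma 2 at 6.63 fell among the controls, and it rose by 2.43. The receptor Fzd7 differed by 1.93 (adjusted p = 0.0049), but its second probe set gave -0.12 and was not called (adjusted p = 0.823), and without the 4 arrays the first missed (adjusted p = 0.0523). The corepressor Tle3 rose by 0.76, while Tle1, Tle2 and Tle4 were not called (-0.25, -0.5 and -0.91). Nkd1 (0.55) was called in 4 of the 13 fits that left out a mouse. The feedback gene Axin2 was not called, and only lymphomas 6, 7 and 8 lay far above the controls. With the Y-linked term 4 of the 7 were called.

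**Figure D3:**
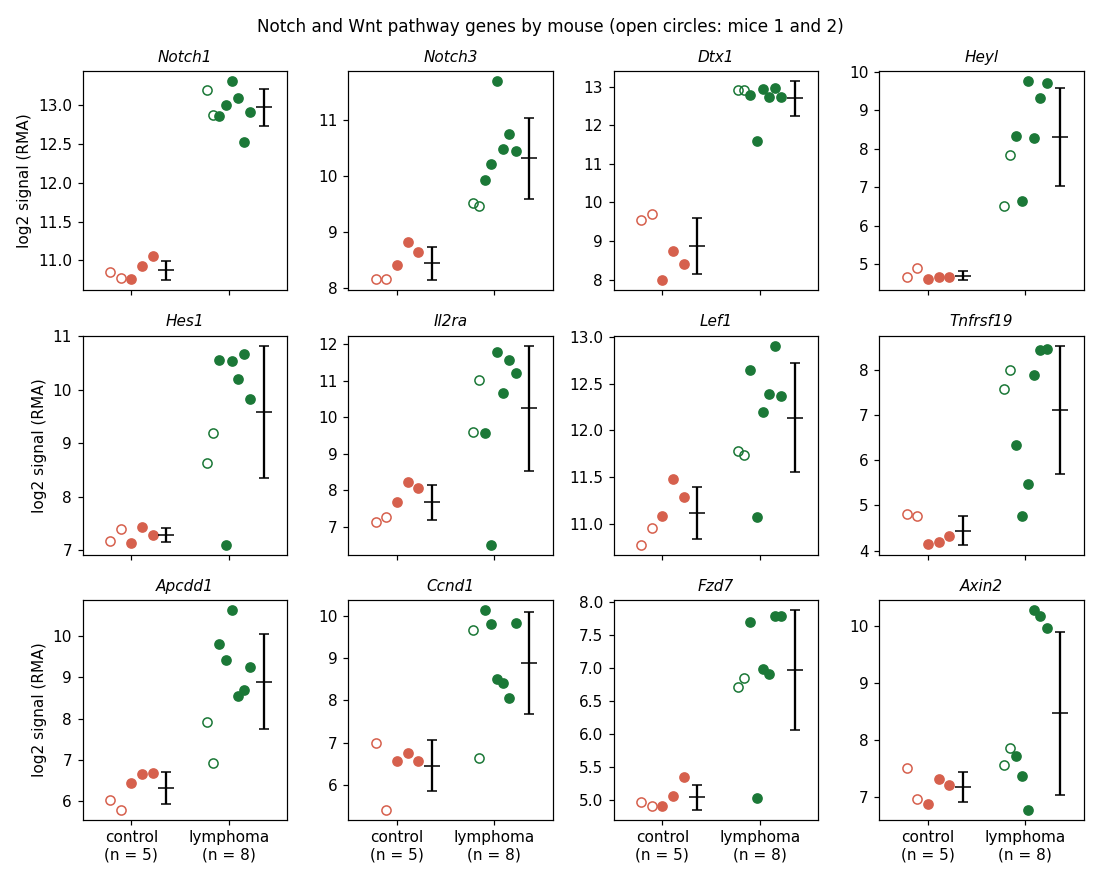
Each circle is the log2 signal of 1 mouse for 6 Notch and 6 Wnt genes, red for the 5 controls and green for the 8 lymphomas, open for mice 1 and 2, whose arrays stood apart; the bar is the mean ± SD. Notch1 does not overlap between groups, whereas for Hes1 and Il2ra 1 lymphoma, mouse 4, lies below the controls, and Axin2 is high in 3 lymphomas alone.

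Promoters of these genes were searched for the letters that the 2 pathways' factors bind. For TCF/LEF the words were CTTTGAT and CTTTGAA, for Rbpj it was GTGGGAA, on both strands, within 250 bases before and 50 after each RefSeq gene start of GRCm38.p6. The words of the 2 factors overlapped in 3 windows of the table. Of 13755 genes tested, 11050 had a window in the table. A TCF/LEF word was in 6.23% of the windows of genes tested, 5.26% for genes that were higher and 7.2% for genes that were lower, against 8.65% of all windows in the table. The Rbpj word was in 6.13%, 5.59% and 7.68%, against 6.38% of all windows. These shares are descriptions and a match is not a binding site. The 6 genes below are shown because they are among the called Notch and Wnt members or the 20 highest and lowest and have a word, in capitals, in a window, and 1 window of each is printed 5′ to 3′ on the strand of the gene. Lef1 lies at chr3:131110047-131110346, Lfng at chr5:140607091-140607390 and Tctex1d1 at chr4:102978453-102978752 on the plus strand, and Tnfrsf19 at chr14:61037938-61038237, Sertad4 at chr1:192855703-192856002 and Slc6a19 at chr13:73692587-73692886 on the minus strand. The capitals mark the Rbpj word in Lef1, Lfng, Sertad4, Slc6a19 and Tctex1d1 (in Slc6a19 and Tctex1d1 on the opposite strand) and the TCF/LEF word, on the opposite strand, in Tnfrsf19.
Lef1: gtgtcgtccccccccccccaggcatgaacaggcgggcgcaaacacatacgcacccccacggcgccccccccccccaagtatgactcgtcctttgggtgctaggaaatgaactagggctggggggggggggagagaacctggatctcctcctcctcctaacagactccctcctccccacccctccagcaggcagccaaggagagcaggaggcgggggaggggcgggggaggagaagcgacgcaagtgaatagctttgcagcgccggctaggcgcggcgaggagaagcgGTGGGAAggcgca
Lfng: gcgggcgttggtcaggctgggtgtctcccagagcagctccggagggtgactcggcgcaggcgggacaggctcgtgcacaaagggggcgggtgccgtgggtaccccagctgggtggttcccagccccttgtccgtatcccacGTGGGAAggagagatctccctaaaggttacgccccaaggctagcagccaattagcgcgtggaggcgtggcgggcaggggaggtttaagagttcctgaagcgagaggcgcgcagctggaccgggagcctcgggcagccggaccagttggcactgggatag
Tnfrsf19: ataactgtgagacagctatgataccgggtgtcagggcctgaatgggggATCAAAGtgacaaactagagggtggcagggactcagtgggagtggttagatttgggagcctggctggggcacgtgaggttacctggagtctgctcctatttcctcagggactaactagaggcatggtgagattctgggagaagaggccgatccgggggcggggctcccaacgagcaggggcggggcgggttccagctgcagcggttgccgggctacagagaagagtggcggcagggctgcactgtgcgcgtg
Sertad4: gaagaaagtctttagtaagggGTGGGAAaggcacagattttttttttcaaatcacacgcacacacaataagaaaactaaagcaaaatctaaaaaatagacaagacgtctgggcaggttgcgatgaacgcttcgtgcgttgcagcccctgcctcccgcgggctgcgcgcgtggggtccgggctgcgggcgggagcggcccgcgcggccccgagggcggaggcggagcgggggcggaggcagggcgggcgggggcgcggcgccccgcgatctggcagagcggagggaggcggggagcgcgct
Slc6a19: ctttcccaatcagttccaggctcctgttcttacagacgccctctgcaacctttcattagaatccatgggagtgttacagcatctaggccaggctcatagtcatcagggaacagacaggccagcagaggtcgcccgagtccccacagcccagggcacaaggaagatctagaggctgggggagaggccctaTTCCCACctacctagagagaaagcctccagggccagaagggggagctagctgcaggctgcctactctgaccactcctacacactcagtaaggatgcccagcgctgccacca
Tctex1d1: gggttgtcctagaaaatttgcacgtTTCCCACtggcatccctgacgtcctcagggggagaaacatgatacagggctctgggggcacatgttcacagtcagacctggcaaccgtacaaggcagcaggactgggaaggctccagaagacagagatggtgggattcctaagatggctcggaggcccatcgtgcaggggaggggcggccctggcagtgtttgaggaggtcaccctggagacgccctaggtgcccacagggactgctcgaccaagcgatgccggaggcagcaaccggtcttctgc

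Of these genes Lef1, Tnfrsf19 and Sertad4 were higher and Lfng, Slc6a19 and Tctex1d1 were lower, so genes with a word were found in both directions. None of the 24 windows of the 20 highest genes held a TCF/LEF word, and none of the 11 windows of the 20 lowest did. The Rbpj word was in 1 of the 24 windows and in 2 of the 11. Windows were in the table for 14 of the 20 highest and 9 of the 20 lowest genes. These windows are too few to compare with the 6.23% (TCF/LEF) and 6.13% (Rbpj) of windows of genes tested.

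Ribosome biogenesis had the largest share of higher members among the lists. Of 32 tested, 24 were higher and none was lower, with a median of 0.96, and for 19 of the 32 all lymphomas lay above all controls. Rrp12, a ribosome export factor, had log2 signals of 6.36, 6.16, 6.23, 6.65 and 6.56 in controls and 7.03 to 8.83 with a median of 8.38 in lymphomas and rose by 1.74 (standard error 0.3, adjusted p = 0.00244 from limma). Lymphomas 3 and 5, at 7.03 and 7.19, were nearest to the controls. Gnl3, the nucleolar GTPase nucleostemin, was at 9.37, 9.63, 9.44, 9.68 and 9.79 in controls and 10.44 to 11.05 with a median of 10.79 in lymphomas, without overlap, and rose by 1.18 (standard error 0.15, adjusted p = 0.000255). The processing factor Utp20 rose by 1.45, the methyltransferase Fbl by 1.11, the pseudouridine synthase Dkc1 by 1.2 and the RNA polymerase I subunit Polr1a by 1.08. Other probe sets of Polr1a gave 0.13 and 0.83 and were not called (adjusted p = 0.678 and 0.0696 from limma). Over the pairs 16 were called and without the 4 arrays 17, and Npm1 (0.25) and Nop58 (1.46) were not called. Of 29 cytosolic ribosomal protein genes 5 were higher, with Rps6 at 10.07 to 10.5 in controls and 10.88 to 11.82 in lymphomas. The 11 Myc network genes gave 1 lower member, Mxd1, which was called in 2 of the 13 fits that left out a mouse and missed without the 4 arrays and with the Y-linked term (adjusted p = 0.218 and 0.137), and Myc itself differed by 0.87 (adjusted p = 0.396).

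Replication genes were higher in part, and no mitotic gene was called with all 13 arrays and no further term. Of 35 replication genes tested, 10 were higher and none was lower (median 0.43), and of 32 mitosis and spindle genes none was called in either direction by limma or by the exact Mann-Whitney U test (median -0.12, 3 at an unadjusted p under 0.05). Of these 32, 2 were lower without the 4 arrays and 1 over the pairs. With the kind of array as a block 5 were lower, where 12.4% of all genes tested were lower. The primase subunit Prim2 had log2 signals of 8.66, 8.73, 9.35, 9.26 and 9.29 in controls and 9.63 to 10.4 with a median of 10.08 in lymphomas, all above, and rose by 0.98 (standard error 0.18, adjusted p = 0.00308 from limma). The catalytic primase subunit Prim1 rose by 0.92 and the helicase subunit Mcm6 by 0.65, Mcm6 losing its call without control 1 or 2 and without the 4 arrays (adjusted p = 0.115). Other probe sets of Prim2 gave 0.91 and 0.08 and that of Prim1 0.35, none called (adjusted p = 0.172, 0.845 and 0.537 from limma). Over the pairs 4 replication genes were called, and 4 without the 4 arrays. Of 21 cell-cycle regulators 3 were higher and 5 were lower. Besides the rise of Ccnd1, Ccnd2 was at 9.72, 9.95, 9.91, 10.42 and 10.41 in controls and 5.68 to 9.72 with a median of 6.61 in lymphomas. Lymphomas 4 and 7, at 9.19 and 9.72, lay near the controls and the other 6 at or below 6.89, and the difference was -2.96 (standard error 0.62, adjusted p = 0.00655 from limma), with all 6 other probe sets lower as well. Ccnd2 missed without the 4 arrays and with the Y-linked term (adjusted p = 0.0565 and 0.0524). The inhibitors Cdkn1b (p27) and Cdkn2d (p19) fell by 0.97 and 1.64 and the factor E2f2 by 1.84. Cdk4, E2f1 and Ccnd3 were called in 4, 4 and 7 of the 13 fits that left out a mouse, and Cdk4 and E2f1 missed over the pairs (adjusted p = 0.0829 and 0.0948). None of these 3 was called without the 4 arrays or with the Y-linked term.

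Glycolytic genes rose in part, 7 of 20 with none lower and a median of 0.44. Pyruvate kinase (Pkm) was at 11.29, 11.59, 11.25, 11.23 and 11.34 in controls and 12.19 to 13.1 with a median of 12.61 in lymphomas, without overlap, and rose by 1.31 (standard error 0.15, adjusted p = 0.000127 from limma). Hexokinase 2 (Hk2) was at 6.68, 6.98, 6.96, 7.11 and 7.12 in controls and 7.25 to 9.29 with a median of 8.91 in lymphomas, lymphoma 5 at 7.25 alone being close to the controls, and rose by 1.74. Triose phosphate isomerase (Tpi1) rose by 1.4 and the glucose transporter Slc2a3 by 1.32, the last of which missed without the 4 arrays (adjusted p = 0.0893). Of 39 oxidative phosphorylation genes 5 were higher (12.8%, against 8.51% of all genes tested), led by Ndufa10 (0.87). Over the pairs 2 were called higher, where 6.43% of all genes tested were higher. Of 21 amino acid transporters 2 were higher (9.52%) and 3 lower (14.3%, against 4.21% of all genes tested). The large neutral amino acid transporter Slc7a5 was at 8.35, 8.11, 7.63, 7.99 and 7.88 in controls and 8.8 to 10.4 with a median of 9.78 in lymphomas, without overlap, and rose by 1.63. Slc43a2 fell by 1.45.

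**Figure D4:**
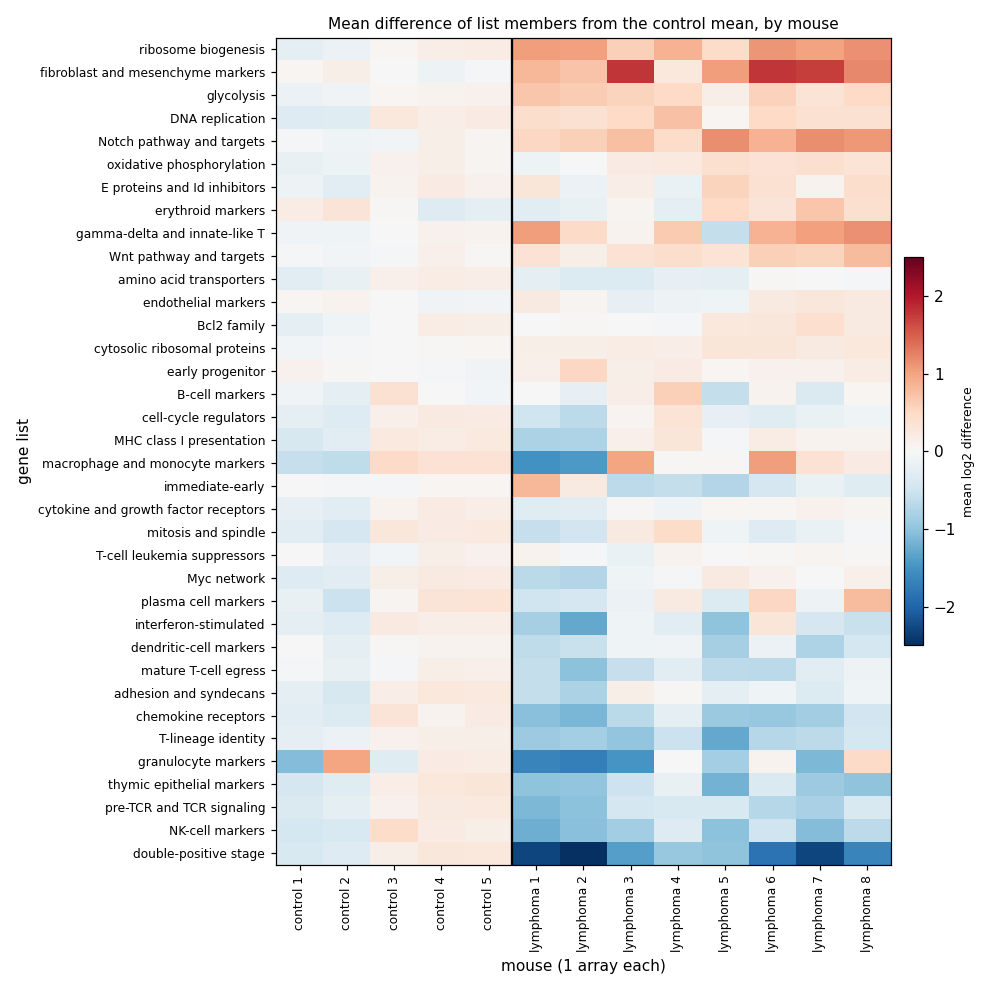
Each cell is the mean, over the tested members of 1 list, of the log2 signal minus the control mean, for 1 mouse; controls are left of the black line, and rows are ordered by the median difference. Double-positive genes ran from -2.53 to -0.96 in lymphomas and -0.37 to 0.28 in controls, ribosome biogenesis from 0.46 to 1.15 and -0.25 to 0.19.

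Receptors for cytokines and chemokines and adhesion molecules follow. Of 30 cytokine and growth factor receptors, 4 were lower (13.3%) and 2, Pdgfrb and Il2ra, were higher (6.67%). Over all genes tested 4.21% were lower and 8.51% were higher. With the Y-linked term 2 of these receptors were lower and 1 was higher. The interleukin-4 receptor chain Il4ra had log2 signals of 8.5, 9.02, 9.05, 9.1 and 9.07 in controls and 5.73 to 7.64 with a median of 6.35 in lymphomas, and the tumors were all below. It fell by 2.48 (standard error 0.27, adjusted p = 7.8e-05 from limma), the interferon-γ receptor Ifngr1 by 1.61 and Il21r by 1.83. Of 16 chemokine receptors 5 were lower and none was higher (median -0.63), Ccr7 and Ccr9 among them. Of the 5 chemokine receptors 2 were called with the Y-linked term. Of 26 adhesion genes 4 were lower (15.4%) and 2 were higher (7.69%), and with the Y-linked term 2 and 2. The selectin ligand Selplg was at 11.45, 11.37, 11.3, 11.24 and 11.28 in controls and 9.71 to 10.57 with a median of 10.21 in lymphomas and fell by 1.13, and Icam2 fell by 1.41. The integrin chain Itgb5 rose by 1.45 on the probe set used, but 2 of its 3 other probe sets gave -0.28 and -0.53 and were not called. Of 27 interferon-stimulated genes 5 were lower (median -0.47), for example Ifit1 (-1.89) and Ifi27l2a (-2.04), and with the Y-linked term none of them was called. Ifit1 and Ifi27l2a missed without the 4 arrays (adjusted p = 0.0862 and 0.0838). None of 17 genes of class I antigen presentation was called by limma or by the exact Mann-Whitney U test, 5 at an unadjusted p under 0.05. Over the pairs, and also with the kind of array as a block, 1 of the 17 was higher and 2 were lower. Of 21 immediate-early genes 3 were lower, Egr2, induced by receptor signals, the most (-2.37).

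Among survival genes of the Bcl2 family 6.25% of members were called higher and 6.25% lower, and among leukemia suppressors 15% and 10%. Over all genes tested the shares were 8.51% and 4.21%. Of 16 Bcl2 family genes, the antiapoptotic Bcl2l1 was lower (-1.41, adjusted p = 0.0122 from limma), at 10.72, 10.41, 10.15, 10.74 and 10.48 in controls and 8.32 to 10.69 with a median of 8.81 in lymphomas with lymphoma 5 at 10.69 among the controls. Bcl2l1 missed without the 4 arrays and with the Y-linked term (adjusted p = 0.0955 and 0.0519). Bcl2l14 (1.38) was called in 3 of the 13 fits that left out a mouse, and it missed without the 4 arrays, over the pairs and with the Y-linked term (adjusted p = 0.0973, 0.125 and 0.229). Of 20 suppressors of T-cell leukemia, 3 were higher (Lef1, the phosphatase Ptpn2 and Etv6) and 2 were lower (Cdkn1b and Bcl11b). Lef1 is on this list, but the study proposes that it can act as an oncogene in lymphomas without Tcf1. Etv6 missed without the 4 arrays, over the pairs and with the Y-linked term (adjusted p = 0.199, 0.128 and 0.0648). Ptpn2 rose by 0.76, although its 2 other probe sets gave 0.52 and -0.24 without a call. None of the 7 E protein and Id genes was called by limma or by the exact Mann-Whitney U test, and 2 had an unadjusted p under 0.05. Over the pairs, and also with the kind of array as a block, 1 of the 7 was lower.

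Markers of other cell types were read beside these values. Log2 array signals have no true 0, so a marker that is absent shows as a dim value. None of 16 macrophage markers, 11 B-cell markers and 9 granulocyte markers was called by limma or by the exact Mann-Whitney U test, and at an unadjusted p under 0.05 the numbers were 1, 0 and 1. Among macrophage markers 1 was lower without the 4 arrays, 1 over the pairs and 2 with the kind of array as a block. Over the pairs 1 granulocyte marker was lower, and with the Y-linked term 1 B-cell marker was higher. The macrophage mean relative to the control mean ran from -0.64 to 0.48 in controls and from -1.51 to 1.05 in lymphomas, lowest in lymphomas 1 and 2. Of 9 NK-cell markers, 5 were lower and Gzma, a cytotoxic protease, was higher. The receptor Klrd1 was at 7.15, 7.39, 8.6, 8.13 and 8.19 in controls and 4.53 to 6.73 with a median of 5.09 in lymphomas and fell by 2.61, whereas Gzma was at 11.34, 11.57, 12.07, 12.02 and 11.92 in controls and 12.25 to 13.9 with a median of 13.46 in lymphomas and rose by 1.46 (standard error 0.28, adjusted p = 0.00467 from limma). Without the 4 arrays the call of Gzma was lost (1.17, adjusted p = 0.0779). Of 17 thymic epithelial markers, 3 were lower, the thymoproteasome subunit Psmb11 (-1.66), Prss16 (-1.36) and Pax1 (-0.72), and Prss16 and Pax1 missed over the pairs (adjusted p = 0.0742 and 0.137). The epithelial mean ran from -0.43 to 0.3 in controls and from -1.17 to -0.18 in lymphomas. Of 12 dendritic-cell markers 3 were lower, of which 1 was called over the pairs. Of 6 erythroid markers Klf1 was higher, called in 9 of the 13 fits that left out a mouse and not with the Y-linked term (adjusted p = 0.229). Of 8 endothelial markers Egfl7 was higher, and it missed over the pairs, without the 4 arrays and with the Y-linked term (adjusted p = 0.0513, 0.112 and 0.134).

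Markers that belong with Pdgfrb, Sdc1 and Igha moved as follows. Of 14 fibroblast and mesenchyme markers, Pdgfrb and the matrix protein Fbln1 were higher and Thy1, also a T-cell marker, was lower, with a median of 0.52. Fbln1 was at 5.98, 6.08, 5.71, 5.36 and 5.63 in controls and 7.54 to 9.36 with a median of 8.18 in lymphomas, without overlap, and rose by 2.56 (standard error 0.29, adjusted p = 0.000127 from limma). The collagens Col1a1, Col1a2 and Col3a1 were not called (0.43, 1.57 and 2.21), and Pdgfra differed by 0.41. The difference was above 0 for 13 of the 14, while the median over all genes tested was 0.06. The mean of the list relative to the control mean ran from -0.12 to 0.14 in controls and from 0.27 to 1.79 in lymphomas, every tumor above every control. This mean includes Pdgfrb, which was chosen by its values and had the largest difference of the list, and it was not taken without Pdgfrb. Of 9 plasma cell markers Sdc1 was higher, Xbp1, Jchain and Ighm were lower (-1.36, -2.23 and -1.41), and Prdm1 and Mzb1 were not called (-0.3 and 0.01). Other probe sets of Ighm disagreed, with called differences of -1.68 and -1.26 and uncalled ones from -1.71 to 1.28. Jchain was called in 4 of the 13 fits that left out a mouse, and none of the 3 lower genes was called with the Y-linked term. The part of these cell types in the differences of Pdgfrb, Sdc1 and Igha was not tested.

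The lymphomas differed more from each other than the controls did. The SD over the 8 lymphomas had a median of 0.399 over all genes tested, against 0.315 over the 5 controls, and it exceeded 1 for 1041 genes (7.57%) in lymphomas and for 299 (2.17%) in controls. These SDs were not compared by a test, and the groups differ in size and in Y-linked signal. The 15 genes of largest SD include Ly6k, a GPI-anchored protein, at 11.23, 12.11, 12.42 and 11.58 in lymphomas 3, 4, 5 and 8 and between 5.15 and 5.79 in the other 4, with controls at 8.68 to 10.23. Cd44, an adhesion receptor of early thymocytes, was at 9.98, 11.09 and 10.77 in lymphomas 3, 4 and 5, above all controls (8.19 to 8.87), and at or below 7.38 in the other 5. Ddc, the enzyme aromatic amino acid decarboxylase, was at 10.45, 10.28 and 9.83 in the same 3 tumors and at or below 4.16 in the rest. Lymphomas 3, 4 and 5 were also the highest for the growth factor homolog Fgf13 and among the lowest for the DNA-binding protein Ybx3, at 6.89, 8.4 and 6.67 against 10.49 to 10.96 in controls.

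Other genes marked other sets of tumors. Clvs1, a vesicle protein, was at 9.43, 10.01 and 10.44 in lymphomas 2, 6 and 8 and at 3.06 to 3.62 in controls. The scavenger receptor Scara3 and the desmosomal cadherin Dsg2 were highest in lymphomas 3 and 5, at 11.18 and 10.92 for Scara3 and 10.91 and 11.32 for Dsg2. Cryab, a small heat shock protein, was highest in lymphoma 7 at 10.34, and the interferon-inducible Ifi204 was between 8.71 and 10.73 in lymphomas 3, 6, 7 and 8. Bex1 was above 12 in lymphomas 1, 3, 4, 7 and 8, and the ectoenzyme Bst1 above 10 in lymphomas 3, 4 and 5. Of the 15, Ly6d, a surface protein of lymphocytes, was called lower (-3.63, adjusted p = 0.0228) and the LIM-domain protein Lmcd1 higher (3.36, adjusted p = 0.0316 from limma). Ly6d stayed within 1 log2 unit of the controls in lymphomas 4 and 5 (12.74 and 12.44), and both calls missed without the 4 arrays (adjusted p = 0.115 and 0.158). The other 13, Wls, a carrier of Wnt ligands, among them, were not called.

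**Figure D5:**
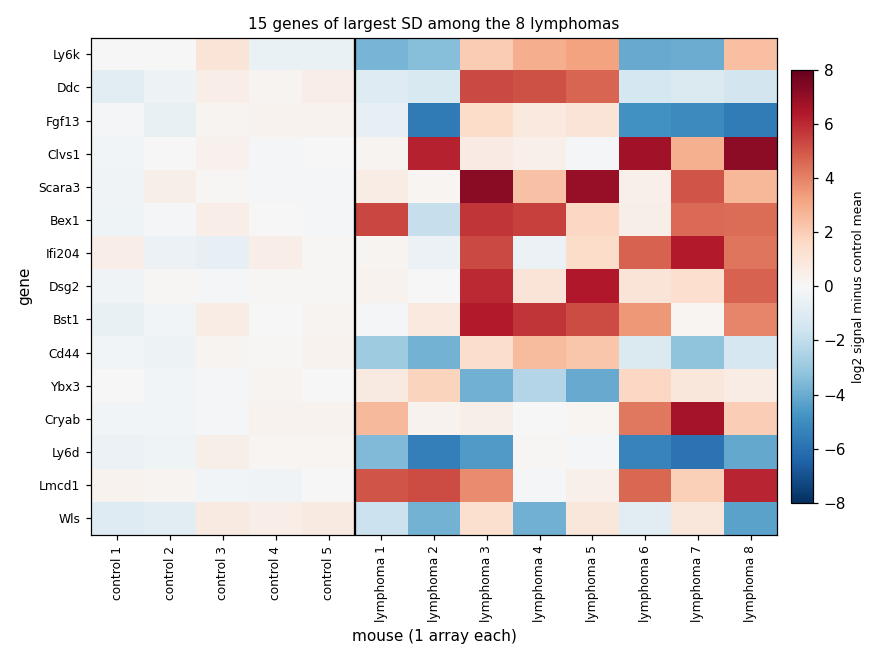
Rows are the 15 genes of largest SD among the 8 lymphomas, ordered by that SD, and columns are mice; color is the log2 signal minus the control mean. Lymphomas 3, 4 and 5 share high values of Ddc, Bst1 and Cd44, and lymphomas 2, 6 and 8 share high values of Clvs1.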

How the data were processed

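Groups were taken from the sample titles. The authors processed the arrays by RMA, which gives 1 log2 signal for each probe set and array, and these log2 values were deposited. The submitters' processing notes name no RMA version, and the study's methods name R 2.14 and Bioconductor 2.9. RMA usually equalizes the distribution of signals between the arrays it is run on, which hides a change shared by most genes, but the deposited distributions differed between 2 kinds of array (4 and 9 of the 13). Of 45101 probe sets, 34945 carried 1 gene symbol in the platform annotation, 932 several, 9160 none and 64 were controls. Each of 18193 genes was represented by its probe set of highest mean over the 17 arrays, and the 13755 genes whose probe set passed the array's 40th percentile on 4 or more arrays were tested.

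Lymphomas were compared with controls by limma 3.58.1 in R 4.3.3 with empirical Bayes moderation and Benjamini-Hochberg adjustment over all genes tested, called at an adjusted p under 0.05. Differences are lymphoma minus control on the log2 scale. The genes named are the 20 highest and 20 lowest called genes without overlap (unnamed transcripts, Y-linked genes and Xist left out), the members of 37 gene lists and the 15 genes of largest SD among lymphomas. Members and lists were chosen with earlier results of these data known. Promoter sequences are those of RefSeq, GRCm38.p6.

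In data simulated from these arrays with 200 changed genes, the fit recovered 44% of changes of 1 and 90% of changes of 2 on the log2 scale, with 12 false calls. The simulated noise was independent between genes and arrays and had the same SD in both groups. It held no shared effect of the kind of array, RNA quality or Y-linked signal, so the rates in the real data may differ.

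Control and lymphoma mice share the numbers 1 to 5. After subtraction of the group means all 5 same-numbered pairs correlated (0.246 to 0.625), which is above the limit set for pairing, although the own number was the closest in 2 of 5. Both mice of each pair were on the same kind of array, which the subtraction leaves in the values. The blocked fit used the 10 arrays of these pairs, without lymphomas 6, 7 and 8. Alternatives were the inclusion of all 17 arrays, the omission of single mice, other filters, probe sets, normalizations and variance models, the exact Mann-Whitney U test, the kind of array as a block or left out, and a term for Y-linked signal. The number of mice limits the precision, and p-values measure the spread between mice. Some genes that the lists name are not reported here.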

Additional observations from a re-analysis of the deposited data

Results flagged for a closer look

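In 7 of the 80 groups of values examined for the 20 highest and 20 lowest genes, a single mouse lay far from the rest of its group, where chance flags about 1 group in 20 (a rate for groups not chosen by their values, as these genes were). Lymphoma 4 was the lone tumor for Trim2 (5.29, the others 7.81 to 9.64), for Dtx1 (11.58, the others 12.73 to 12.96) and for Tdrp (5.68, the others 4.44 to 5.0), each time on the side of the controls. Lymphoma 5 was the lone tumor for Adamts20 (4.11, the others 6.71 to 8.12) and Slc6a19 (6.58, the others 5.17 to 5.73), also on the side of the controls. Lymphoma 7 stood apart for Akr1c13 (8.04, the others 4.18 to 5.84), close to the controls. Control mouse 2 stood apart for Heyl (4.90, the others 4.60 to 4.67) by less than the gap to the lowest lymphoma. All of these genes were called in each of the 13 fits that left out a mouse, which reuse the values by which they were chosen.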

How the results depend on the processing

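The fits without a filter, with a filter at the 60th percentile, with all 17 arrays, with a variance trend, and with the probe set of largest variance called 1423 to 1948 genes in place of 1749 and 65.4% to 68.2% higher in place of 66.9%. The count moved by over 1.5 times when a term for Y-linked signal was added (1122, 75.9% higher), with the kind of array as a block (3753, 54.7% higher), in the 4 arrays alone (2872, 56.1% higher) and with a log2 difference of at least 1 required (854, 60.4% higher). The share alone moved when each array was centred on its median (69.9%), in the exact Mann-Whitney U test (70.3%, 1192 genes), with the mean of all probe sets (62.6%), after quantile normalization (57.7%) and without the 4 arrays (47.6%). Leaving out each mouse gave 1177 to 1951 genes and 60.7% to 70.5% higher. With the replicate block over the 5 same-numbered pairs 1785 genes were called, 49.6% higher, and the same 10 arrays without the block gave 686 genes, 60.1% higher. The block kept all 40 of the highest and lowest genes, which were chosen by their values, and 119 of 162 called list members. On the probe set of largest variance the differences of Heatr1 (-0.049), Itgb5 (-0.28), Ptpn2 (-0.24) and Rpa2 (-0.13) turned negative, and that of Ybx3 was 1.36 in the 4 arrays alone. Of the 162 called list members 107 were called without the 4 arrays and 88 with the Y-linked term. The cause of these shifts was not tested. Dim probe sets are limited by background.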

Other observations

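The 4 thymi of Tcf1-/- mice without a tumor were not part of the comparison, and their values for the 40 highest and lowest genes are given here without a test. The genes were chosen by the values of the same controls and lymphomas, and the shares over all genes were not counted. The counts that follow are therefore descriptions. For 16 of the 20 highest genes all 4 lay above all 5 controls. Dtx1 was at 11.72, 11.37, 12.27 and 12.1 in them, and Pdgfrb at 11.08, 9.83, 10.08 and 10.03. Arginase (Arg1) was at 5.60, 5.24, 4.61 and 4.53, below all 8 lymphomas. For 9 of the 20 lowest genes all 4 lay below all controls, among them Cd4 at 9.28, 8.42, 8.77 and 8.58 and Slc6a19 at 5.39, 5.27, 5.19 and 5.47. For 10 of the 20 lowest genes all 4 lay above all 8 lymphomas, among them Sgk3 at 9.68, 8.56, 8.44 and 8.99, Ms4a4b at 13.42, 12.65, 12.5 and 11.37 and Hmgn3 at 9.17, 7.88, 8.13 and 8.74. These arrays share the control and lymphoma samples they are set beside.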
